A study of Rattus norvegicus with 8 samples.

Results

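The Nrf2 antioxidant genes are 10 genes of the oxidative stress defence, measured in perfused rat livers. The rule lists them by name and uses no measured value: the transcription factor gene Nfe2l2, its inhibitor gene Keap1, and the target genes Nqo1, Hmox1, Gclc, Gclm, Txnrd1, Srxn1, Slc7a11 and Gsr. The 10 genes were nevertheless chosen with earlier results of these data known. A probe set counted for a gene when that gene was its only symbol in the platform annotation. All 10 were measured, each by 1 probe set, among 14506 genes in all. Total RNA of 8 liver samples from male rats of the outbred Wistar strain was hybridised to 1-colour Affymetrix arrays. The rats were 6 to 10 weeks old, and each isolated liver was kept alive with Krebs-Henseleit buffer, a salt solution that carries no blood. In 4 samples the buffer was normoosmotic, at 305 mosm/L, and in 4 it was hypoosmotic, at 225 mosm/L, which draws water into cells and swells them. All 8 samples carry the time point of 120 min, and the labels do not say which of them are separate animals. The p-values therefore rest on sample-to-sample spread that can include technical spread. Values are deposited log2 expression values, on which a difference of 1 is a 2-fold difference, and changes are hypoosmotic minus normoosmotic.

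Nrf2, the product of Nfe2l2, is a transcription factor that is made and broken down all the time. Keap1 binds it and hands it to the Cul3 ubiquitin ligase, and reactive molecules that modify Keap1 let Nrf2 escape, pair with a small Maf protein and bind antioxidant response elements in its target genes. In liver those targets make glutathione, recycle thioredoxin, degrade heme and detoxify drugs, so the messenger levels of the targets are a usual readout of Nrf2 activity.

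The core of the antioxidant response element was searched as TGACNNNGC on both strands of the RefSeq promoter windows of GRCr8, which run from 250 bases before to 50 bases after a transcript start. Of the 10 genes, 8 matched to a window, with 9 windows in all because Txnrd1 has 2 starts. The remaining 2 had no window and were not searched. The core was found in 3 of the 9, against 12.1% of all 33469 windows. In the related gene lists described below, it was found in 26.9% of windows of other Nrf2 targets. For general antioxidant genes the share was 30.8%, for heme and iron genes 30.0%, for regulators 9.09% and for glutathione genes 4.35%. Before the start alone, the core lay in 2 of the 9 windows, against 10.1% of all windows. In Gclm and in 1 window of Txnrd1 it lay before the start, and in Nfe2l2 after it. The 2 stretches before the start are shown because they hold the sequence that Nrf2 is known to recognise. Both are given 5′ to 3′ on the strand of the gene, and the capitals mark the core, which reads as its reverse complement in both. The Gclm stretch is chr2:213031937-213031997 on the plus strand and ends its core 163 bases before the start. The Txnrd1 stretch is chr7:22755948-22756008 on the minus strand, with 69 bases between core and start.
Gclm: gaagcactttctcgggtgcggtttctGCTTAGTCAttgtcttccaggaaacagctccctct
Txnrd1: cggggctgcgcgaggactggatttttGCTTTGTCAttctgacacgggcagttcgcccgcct
A match is a run of letters and does not show that Nrf2 binds there. Elements outside these windows were not searched.

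The comparison asks whether genes of the Nrf2 defence differ between livers perfused with hypoosmotic and with normoosmotic buffer. None of the 10 genes passed the test at an adjusted p under 0.05 (limma), 0 higher and 0 lower, and 1 of them, Hmox1, had an unadjusted p under 0.05. Over all genes 1.98% passed the adjusted threshold, and 14.6% had an unadjusted p under 0.05. In 0 of the 10 did the 4 values of one group lie beyond all 4 of the other, against 8.27% of all genes. The changes ran from −0.49 for Hmox1 to 0.58 for Nqo1, 6 above 0 and 4 below, with a median of 0.11 beside 0.04 over all genes. Of all genes, 8507 had a change above 0 and 5999 below. For 9 of the 10 the 95% interval of the change lay within 2-fold either way, and for 6 within 0.5 log2 units. Nqo1 was the exception to the first statement. Of all 14506 genes, 14168 had an interval within 2-fold and 9982 within 0.5 log2 units, so narrow intervals are not particular to these genes.

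**Figure D1:**
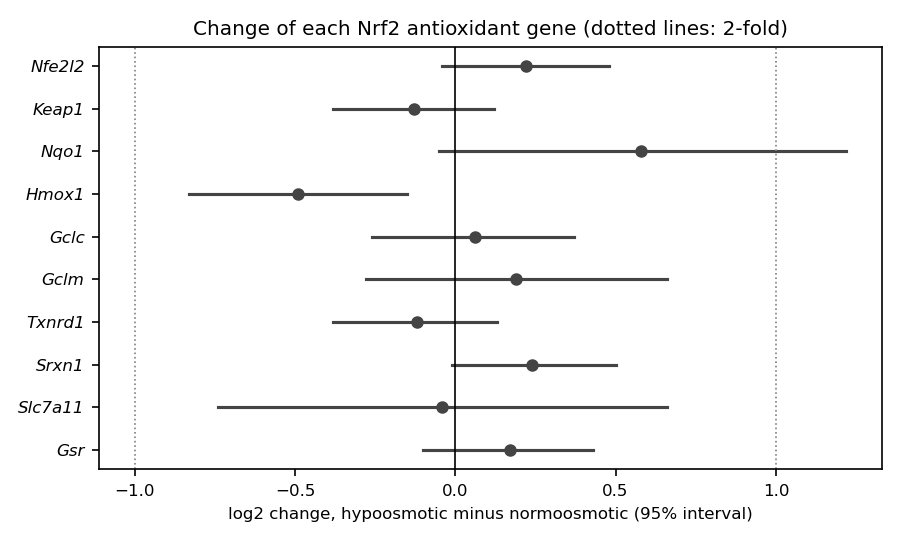
Log2 change (hypoosmotic minus normoosmotic, horizontal axis) of each of the 10 genes, with points for the estimate and lines for the 95% interval of limma, 4 arrays per group. The interval of Hmox1, from −0.83 to −0.15, is the 1 that leaves out 0, and that of Nqo1, up to 1.22, is the 1 that crosses the dotted 2-fold line.

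Nfe2l2 (probe set 10846286) encodes Nrf2 itself. It read 9.40, 9.22, 9.18 and 9.58 in normoosmotic replicates 1 to 4 and 9.55, 9.56, 9.45 and 9.70 in hypoosmotic replicates 1 to 4. The hypoosmotic values sat in the upper part of the range, but normoosmotic replicate 4 reached among them, so the groups overlapped. The means were 9.35 ± 0.18 and 9.56 ± 0.10 (SD, n = 4 each). Their difference of 0.22 had a 95% interval of −0.04 to 0.48 (limma, adjusted p = 0.447). In linear terms the interval ran from 0.973 to 1.39 times the normoosmotic level. Messenger level says little of Nrf2 protein, which is set mainly by its breakdown.

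Keap1 (probe set 10915549), the sensor that holds Nrf2 down, gave 6.73, 6.76, 6.81 and 6.95 in normoosmotic samples. Under the hypoosmotic buffer it gave 6.62, 6.54, 6.66 and 6.90. Of these 4, 3 lay below every normoosmotic value and the remaining one lay near the top. The change was −0.13 (95% interval −0.38 to 0.12, limma, adjusted p = 0.668), so a fall to less than 76.8% of the normoosmotic level lies outside the interval.

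Hmox1 (probe set 10806122) makes heme oxygenase, which opens heme to biliverdin, iron and carbon monoxide. Normoosmotic replicates 1 to 4 read 9.56, 9.99, 10.03 and 9.42, and hypoosmotic replicates 9.02, 9.20, 9.43 and 9.39. The groups met at their edges: 3 hypoosmotic values lay below all normoosmotic ones, and hypoosmotic replicate 3 lay 0.01 above normoosmotic replicate 4. The means were 9.75 ± 0.31 and 9.26 ± 0.19 (SD, n = 4 each). The log2 change was −0.49 with a standard error of 0.16 and a 95% interval of −0.83 to −0.15 (limma, unadjusted p = 0.00768, adjusted p = 0.137). That is 71.2% of the normoosmotic level, with an interval of 56.4% to 89.9%. In 16 alternative fits the change stayed between −0.60 and −0.40 and the adjusted p between 0.0775 and 0.346, so it passed in 0 of them.

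In whole liver Hmox1 is also made by resident macrophages, which clear old red cells, and bulk RNA cannot tell fewer cells of a type from less RNA per cell. The 10 macrophage markers measured, among them Cd68, Clec4f and Marco, had 0 genes called, beside 1.98% of all genes. Their summed level (log2 of the summed linear values) was 10.09, 9.84, 9.79 and 10.31 in normoosmotic replicates 1 to 4, and 9.98, 10.56, 10.28 and 9.89 in hypoosmotic replicates 1 to 4, so the groups overlapped. The changes of 9 of the 10 macrophage markers lay above 0, where those of 8507 of all 14506 genes did. The median of the 10 was 0.12 beside 0.04 over all genes, and 0 of their 95% intervals left out 0. Of 5 markers of red cells 3 were measured and 0 called, beside 1.98% of all genes. The changes of all 3 lay below 0, and 2 had an unadjusted p under 0.05 (limma), beside 14.6% of all genes. The summed level of the 3 lay between 6.75 and 8.41 in normoosmotic and between 6.54 and 7.64 in hypoosmotic samples. Hbb, the beta chain of hemoglobin, chosen after its values were seen, had a log2 change of −0.85 (95% interval −1.62 to −0.09, limma, adjusted p = 0.279). The remaining markers, Alas2 and Slc4a1, both dimmer than Hbb and named to complete the list, had changes of −0.23 and −0.02. The part of blood left in the liver, or of macrophages, in the Hmox1 values was not tested.

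Gclc (probe set 10911747) and Gclm (probe set 10818793) encode the catalytic and the modifier subunit of glutamate-cysteine ligase, the rate-limiting enzyme of glutathione synthesis. Gclc read 9.89, 9.53, 9.26 and 9.35 in normoosmotic samples and 9.65, 9.71, 9.49 and 9.40 in hypoosmotic ones. All 4 hypoosmotic values lay inside the normoosmotic range. Its change was 0.06 (95% interval −0.26 to 0.37, limma, adjusted p = 0.909), and without normoosmotic replicate 3 it was −0.03.

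Gclm behaved less evenly than its partner. Normoosmotic replicates 1 and 4 read 9.05 and 9.03, and replicates 2 and 3 read 8.29 and 8.23. Hypoosmotic replicates 1 to 4 read 8.80, 9.15, 8.36 and 9.06. Each group thus held high and low samples. The range within the normoosmotic group alone, 1.77-fold, was wider than the change between groups, 1.14-fold (95% interval 0.826 to 1.58, limma, adjusted p = 0.758). The standard deviation within groups was 0.41 for Gclm, larger than in 97.4% of all genes, against 0.22 for Gclc.

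Slc7a11 (probe set 10823057) is the cystine carrier of the exchanger that brings in cystine for glutathione. It read 5.91, 4.51, 4.54 and 4.49 in normoosmotic replicates 1 to 4, and 5.62, 4.34, 4.44 and 4.88 in hypoosmotic replicates 1 to 4. One sample of each group, replicate 1 in both, stood well above the rest of its group, and the other 6 lay between 4.34 and 4.88. The change was −0.04 (95% interval −0.74 to 0.66, limma, adjusted p = 0.973). Its sign rested on single samples: the change was 0.31 when normoosmotic replicate 1 was left out and −0.31 when hypoosmotic replicate 1 was. Leaving out hypoosmotic replicate 2 or 3 gave 0.12 and 0.08. Its heavy-chain partner Slc3a2, named for that role and outside the rule for named genes, had a change of −0.08 (95% interval −0.38 to 0.22).

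Gsr (probe set 10792061), the glutathione reductase that regenerates reduced glutathione, read between 7.79 and 7.96 in normoosmotic samples. Hypoosmotic replicates 1 to 4 read 8.29, 8.01, 7.77 and 8.06. Replicates 1, 2 and 4 lay above the normoosmotic samples and replicate 3 below them. The change was 0.17 (95% interval −0.10 to 0.43, limma, adjusted p = 0.601).

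Txnrd1 (probe set 10901413) is the cytosolic thioredoxin reductase. Its values were 8.28, 8.59, 8.43 and 8.19 in normoosmotic samples and 8.33, 8.12, 8.24 and 8.30 in hypoosmotic ones. Only hypoosmotic replicate 2 lay outside the normoosmotic range, and the change was −0.12 (95% interval −0.38 to 0.13, limma, adjusted p = 0.697).

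Srxn1 (probe set 10840791), the sulfiredoxin that repairs overoxidised peroxiredoxins, read 4.08, 4.28, 4.39 and 4.10 in normoosmotic and 4.54, 4.30, 4.43 and 4.56 in hypoosmotic samples. Here 3 hypoosmotic values lay above every normoosmotic one, and replicate 2 lay within their range. The change was 0.24 (95% interval −0.01 to 0.50, limma, adjusted p = 0.361). Srxn1 and Slc7a11 read close to the median of all gene means, 4.65, where background can hold a share of the signal and compress differences.

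Nqo1 (probe set 10810867) encodes a quinone reductase, a much used marker of Nrf2 activity. It read 6.83, 6.02, 5.53 and 6.46 in normoosmotic replicates 1 to 4 and 7.29, 7.30, 6.12 and 6.47 in hypoosmotic ones. Hypoosmotic replicates 1 and 2 were the highest of all 8, and hypoosmotic replicates 3 and 4 lay inside the normoosmotic range. The means were 6.21 ± 0.56 and 6.8 ± 0.59 (SD, n = 4 each). The change of 0.58, or 1.5-fold, had a 95% interval of 0.967 to 2.33-fold (limma, adjusted p = 0.396). Over the 8 arrays Nqo1 spanned 3.41-fold, the widest range of the 10 genes, and its standard deviation within groups was larger than in 99.4% of all genes. A 2-fold rise of Nqo1 therefore lies inside the interval.

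**Figure D2:**
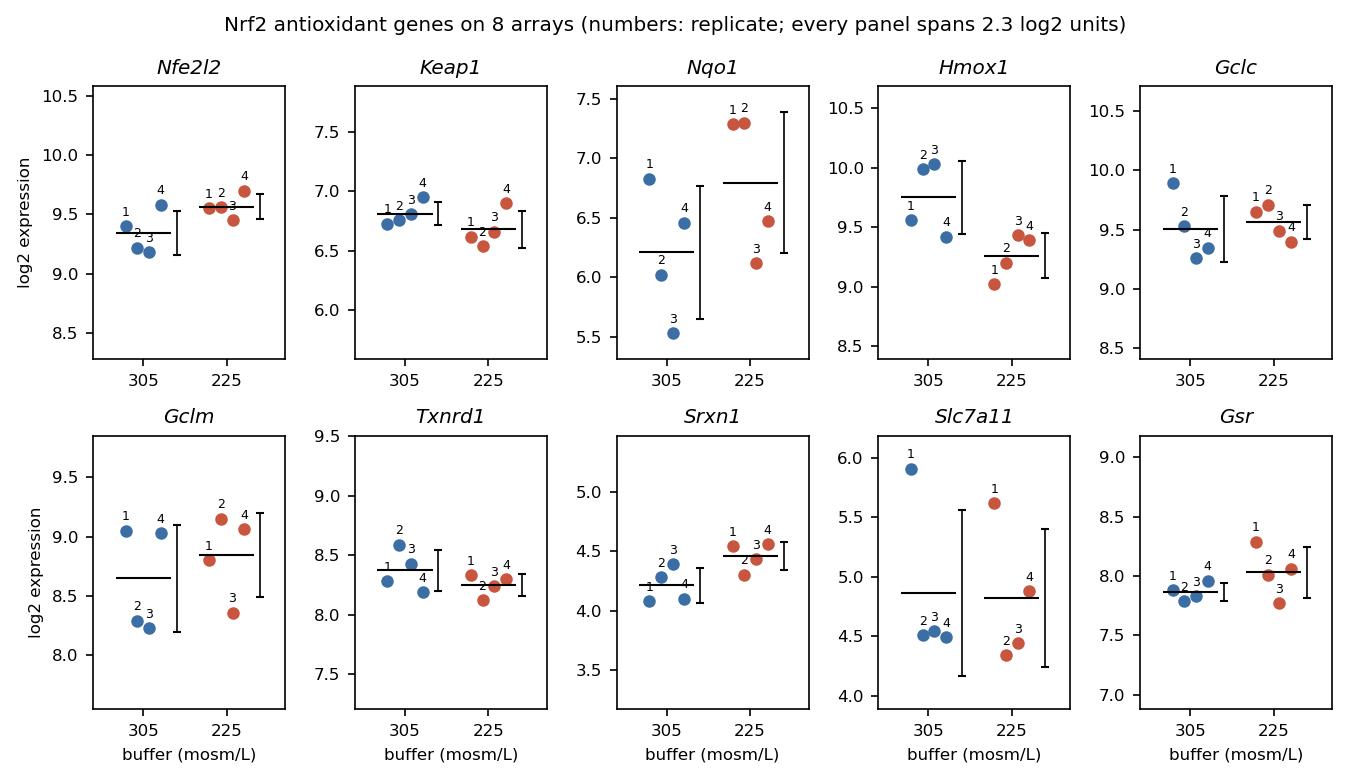
Deposited log2 expression (vertical axis) of the 10 genes by buffer, with a point and replicate number per array, a line at the group mean and a bar for the SD, 4 arrays per group. The groups overlap in all 10 panels, and the SD within groups is largest for Slc7a11 (0.64), Nqo1 (0.58) and Gclm (0.41).

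The 10 genes differed in how much they varied within groups. The standard deviation within groups was 0.13 to 0.16 for Nfe2l2, Keap1, Txnrd1, Srxn1 and Gsr, 0.22 for Gclc and 0.25 for Hmox1. It was 0.41 for Gclm, 0.58 for Nqo1 and 0.64 for Slc7a11, where the median of all genes was 0.19. Nqo1, Gclm and Slc7a11 were all highest of the normoosmotic group in replicate 1, and lay below their own means in normoosmotic replicates 2 and 3 and in hypoosmotic replicate 3. They parted in hypoosmotic replicate 2, where Nqo1 and Gclm were highest of their group and Slc7a11 lowest. In normoosmotic replicate 4 Gclm read 9.03, while Slc7a11 was lowest of its group at 4.49. In hypoosmotic replicate 1 Slc7a11 was highest of its group at 5.62, while Gclm, at 8.80, lay below hypoosmotic replicates 2 and 4.

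The genes nearest to Nqo1 and to Hmox1 in pattern were sought by the root mean square difference of centred log2 values over the 8 arrays. Nearest to Nqo1 was Akr7a3, an aldo-keto reductase of aflatoxin detoxification that stood in the list of other Nrf2 targets, at a difference of 0.20, where the median over all genes was 0.60. Akr7a3 read 8.42, 7.40, 7.25 and 8.21 in normoosmotic replicates 1 to 4 and 8.64, 8.47, 7.69 and 8.18 in hypoosmotic ones. It was low in the same 3 samples as Nqo1 and Gclm, and did not pass the test (change 0.42, 95% interval −0.14 to 0.99). Next were Or4c3e, at 0.29 and dim on all arrays, and Slc43a3, at 0.31. Nearest to Hmox1 were Nfkb1, at a difference of 0.09, and Ttpal and Max, both at 0.11, where the median over all genes was 0.38. Max, the dimerisation partner of Myc, had a change of −0.50 with an adjusted p of 0.0555 (limma), and Nfkb1 and Ttpal had changes of −0.42 and −0.30 with adjusted p-values of 0.210 and 0.353. With 8 arrays and many genes, some genes lie near any pattern.

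**Figure D3:**
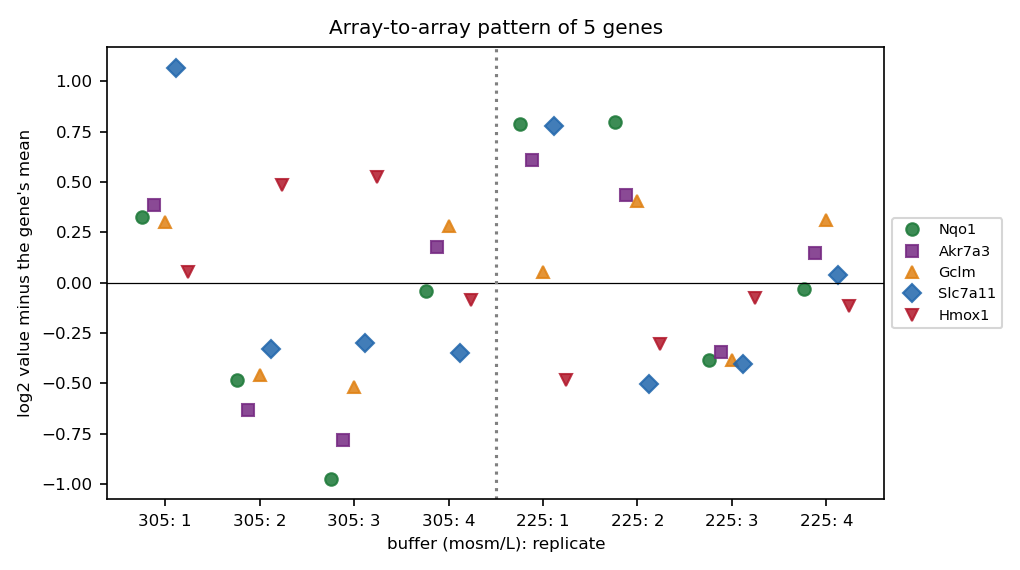
Log2 value minus the mean of each gene over the 8 arrays (vertical axis) for Nqo1, Akr7a3, Gclm, Slc7a11 and Hmox1, by buffer and replicate (horizontal axis). Nqo1, Akr7a3 and Gclm are low in normoosmotic replicates 2 and 3 and in hypoosmotic replicate 3, where Slc7a11 is low as well, and Slc7a11 is highest in replicate 1 of each group.

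Among the partners and regulators of Nrf2, 20 of 22 listed genes were measured. Of these 2 were lower in hypoosmotic samples and 0 higher at the adjusted threshold, which 1.42% and 0.558% of all genes passed in those directions. This list and those below were chosen with earlier results of these data known. The shares over all genes are therefore context for their counts and not a test of them. The median change was −0.07, and the changes ran from −1.10 for Maff to 0.56 for Cdkn1a, the cell cycle inhibitor that can shield Nrf2 from Keap1. Maff, one of the small Maf partners of Nrf2, had the largest change in the list and fell to 46.5% of the normoosmotic level (95% interval 37.6% to 57.4%, limma, adjusted p = 0.00248). The other small Maf genes did not pass. Mafk, chosen after its values were seen, had a change of −0.61 (95% interval −0.94 to −0.29, limma, adjusted p = 0.0555), and Mafg one of 0.06 (−0.18 to 0.29). Mafk read 7.82, 8.31, 8.50 and 8.27 in normoosmotic and 7.40, 7.55, 7.72 and 7.77 in hypoosmotic samples, without overlap. It passed in 6 of 16 alternatives, over which the adjusted p ran from 0.0254 to 0.164 (limma). Among the fits that left out an array it passed only without normoosmotic replicate 1, where the adjusted p was lowest.

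Sqstm1 encodes an autophagy receptor that can bind Keap1 and is itself an Nrf2 target. It read 10.30, 10.55, 10.30 and 10.38 in normoosmotic samples and 9.85, 9.76, 9.83 and 9.95 in hypoosmotic ones. The groups were apart by more than the width of either. Sqstm1 fell by 0.54 ± 0.11 (SE), to 69.0% of the normoosmotic level (95% interval 58.7% to 81.1%, limma, adjusted p = 0.0237). The change was between −0.57 and −0.48 in every alternative, while the call held in 8 of 16. It was lost without normoosmotic replicate 1 (adjusted p = 0.0531), 2 (0.0608) or 3 (0.0631) and without hypoosmotic replicate 1 (0.0581), 2 (0.0899) or 3 (0.0592). It was also lost in the fit with a replicate block (0.051) and with the clock score, a measure of the phase of the circadian clock, as a covariate (0.0514). Of the remaining regulators, Bach1, which competes with Nrf2 for its elements, and Cul3, chosen for their roles after values were seen, had changes of −0.10 and −0.23, both uncalled.

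Among other known Nrf2 targets, 28 of 33 were measured, with 2 lower, 0 higher and a median change of −0.04. Over all genes 1.42% were called lower and 0.558% higher. The changes ran from −0.98 for Gstm3 to 0.98 for Akr1b8. Gstm3, a glutathione transferase of the mu class, read 9.47, 9.66, 9.61 and 9.55 in normoosmotic samples. In hypoosmotic samples it read 9.0, 8.55, 8.31 and 8.53, all below the normoosmotic values. It fell to 50.9% of the normoosmotic level (95% interval 41.2% to 62.8%, limma, adjusted p = 0.00437) and passed in all 16 alternatives. Mu-class transferases are alike in sequence, so a probe set can read a sister gene as well. Measured next to it, Gstm1, Gstm2 and Gstm4, chosen as its relatives, had changes of −0.12, −0.10 and 0.39 and did not pass. Abcc2, the canalicular pump that exports glutathione conjugates into bile, was the other gene called, at 61.8% of the normoosmotic level (95% interval 52.4% to 72.8%, limma, adjusted p = 0.00752). Akr1b8, an aldo-keto reductase, varied widely: it read 5.69, 3.73, 4.01 and 4.09 in normoosmotic and 4.5, 5.49, 4.66 and 6.79 in hypoosmotic samples (95% interval of the change −0.05 to 2.01, limma, adjusted p = 0.372).

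Of the genes that make, use or break down glutathione, 20 of 21 were measured. None passed, where 1.98% of all genes did. An unadjusted p under 0.05 (limma) was found for 5 of the 20, beside 14.6% of all genes, and the median change was 0.10. Such a p was also found for 6 of 20 regulators and 7 of 28 other Nrf2 targets. The counts were 2 of 16 for general antioxidant genes and 2 of 13 for heme and iron genes. Cbs, which feeds homocysteine into cysteine synthesis, had the highest change, 0.44 (95% interval 0.14 to 0.74, limma, adjusted p = 0.139). The lowest belonged to Chac2, a glutathione-degrading enzyme, at −0.32 (adjusted p = 0.446), and to the kappa-class transferase Gstk1, also at −0.32 (adjusted p = 0.222).

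Antioxidant enzymes and related genes that are not classed as Nrf2 targets here gave 16 measured genes of 18. Of these 1 was higher and 0 lower, beside 0.558% and 1.42% of all genes, and the median change was 0.15. Superoxide dismutases, catalase and peroxiredoxins were among the 15 that did not pass. The gene that passed was Txnip, an inhibitor of thioredoxin that responds to glucose. It read 5.39, 5.39, 6.22 and 5.75 in normoosmotic and 6.57, 6.90, 6.63 and 6.12 in hypoosmotic samples, with hypoosmotic replicate 4 below normoosmotic replicate 3. Txnip rose 1.82-fold (95% interval 1.36 to 2.45, limma, adjusted p = 0.0432), and the call held in 8 of 16 alternatives. It was lost without normoosmotic replicate 1 (adjusted p = 0.119), 2 (0.0995) or 4 (0.0693) and without hypoosmotic replicate 1 (0.0918), 2 (0.145) or 3 (0.103). With the replicate block it was 0.0529, and with the clock score 0.0771. Next in this list was Msrb1, a reductase of oxidised methionine, at 0.32 (adjusted p = 0.336), and the lowest change was −0.07 for the selenium carrier gene Selenop, whose sign turned to 0.01 after quantile normalization.

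The heme and iron list surrounds Hmox1, and all 13 of its genes were measured. It held 1 gene that was higher and 0 that were lower, beside 0.558% and 1.42% of all genes, and a median change of 0.14. Slc48a1, which carries heme out of endosomes and lysosomes, read 5.43, 5.71, 5.96 and 6.00 in normoosmotic and 6.35, 6.61, 6.27 and 6.56 in hypoosmotic samples. All 4 hypoosmotic values were above the normoosmotic ones. It rose 1.59-fold (95% interval 1.29 to 1.97, limma, adjusted p = 0.0305). The call held in 9 of 16 alternatives and was lost without normoosmotic replicate 1 (adjusted p = 0.0833), 2 (0.068) or 3 (0.0534), without hypoosmotic replicate 1 (0.0562), 2 (0.111) or 4 (0.0564) and with the clock score (0.0957). The summed level of red cell markers, given beside Hmox1, spanned a lower range in hypoosmotic samples, and its part in the Slc48a1 values was not tested. Alas1, which sets the rate of heme synthesis, had a change of 0.42 (95% interval 0.04 to 0.79, limma, adjusted p = 0.289), and Cp, the gene of the copper-bearing ferroxidase ceruloplasmin, had the lowest, −0.17.

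**Figure D4:**
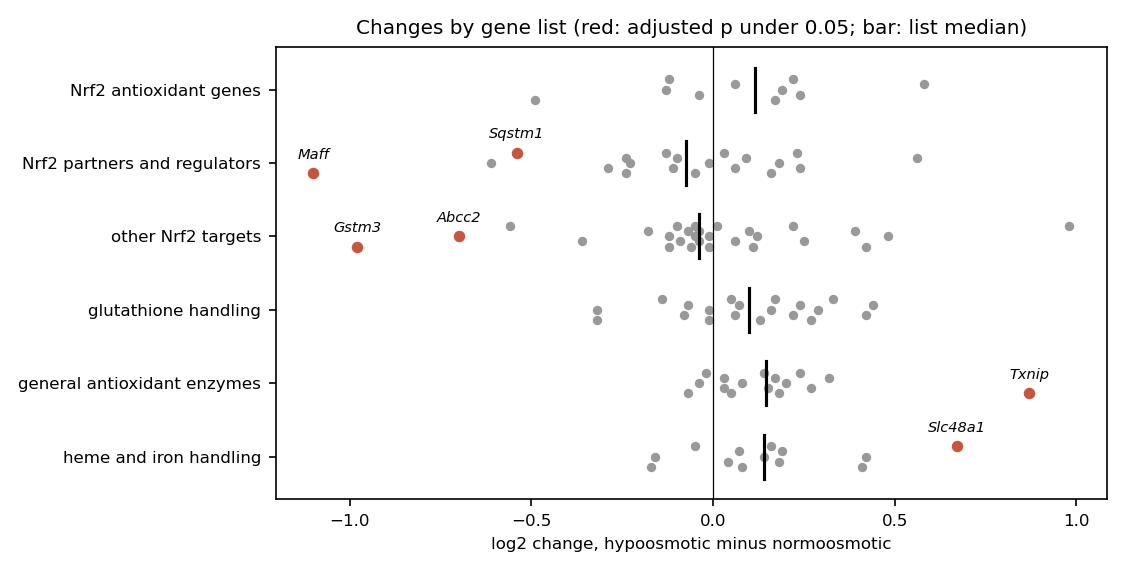
Log2 change (hypoosmotic minus normoosmotic, horizontal axis) of every measured gene of the 6 lists, a point per gene, red where the adjusted p of limma was under 0.05, with a bar at the list median. The 10 Nrf2 antioxidant genes hold 0 red points, and the 6 in the other lists are Maff, Sqstm1, Gstm3 and Abcc2 on the lower side and Txnip and Slc48a1 on the higher.

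**Figure D5:**
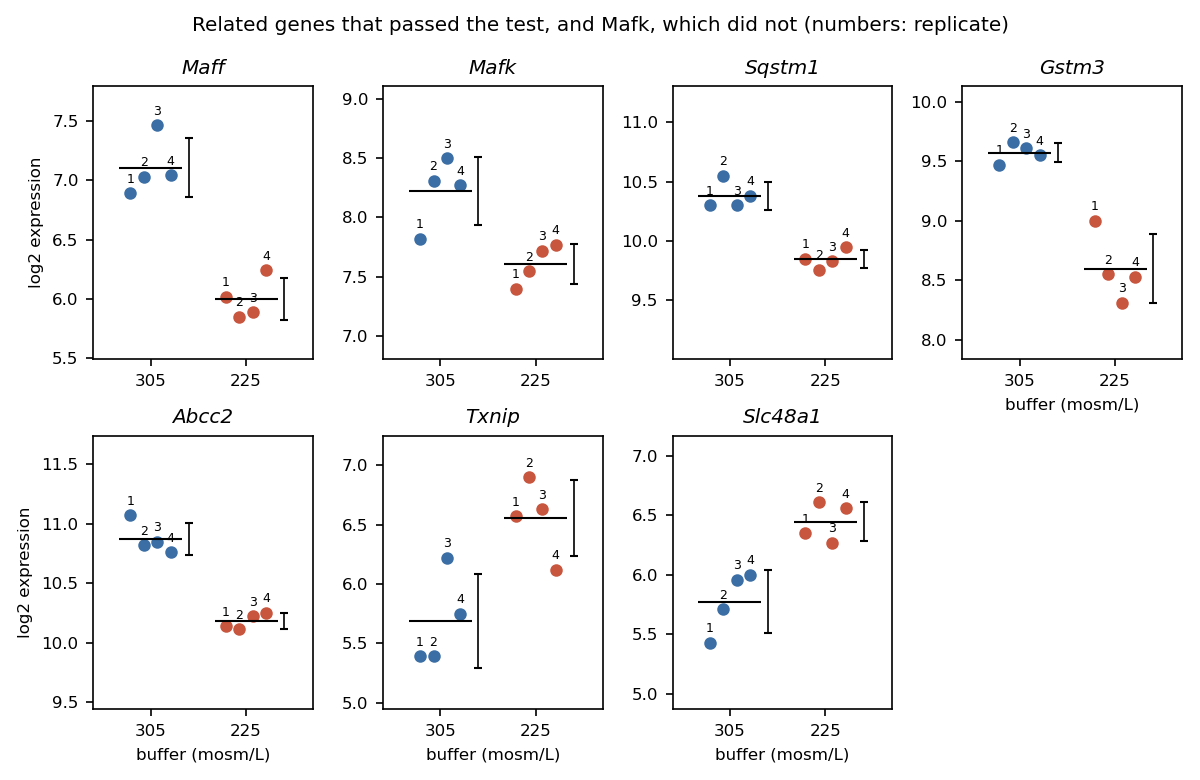
Deposited log2 expression (vertical axis) of the 6 related genes that passed the test and of Mafk, which did not, by buffer, with a point and replicate number per array, a line at the group mean and a bar for the SD, 4 arrays per group. The groups are apart in 6 panels, and in Txnip hypoosmotic replicate 4 lies below normoosmotic replicate 3.

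The arrays read as liver: the summed level of 10 hepatocyte markers, Alb and Ttr among them, lay between 15.38 and 15.44 in normoosmotic and between 15.30 and 15.45 in hypoosmotic samples, with 0 called. Markers of endothelial, stellate, bile duct, neutrophil and lymphocyte cells also had 0 genes called. Over all genes 1.98% were called, so 0 called in marker lists this short says little about cell make-up. The stellate markers spanned 9.57 to 10.32 in normoosmotic and 9.68 to 9.98 in hypoosmotic samples. The clock score, from clock genes that differ by time of day, was −2.80 and −3.38 in normoosmotic replicates 1 and 3 and lay between −0.52 and 1.49 in the other 6 samples. With it as a covariate, the change of Hmox1 was −0.43 (limma, adjusted p = 0.319) and that of Nqo1 0.45 (0.669).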

How the data were processed

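Trizol was used to extract total RNA, and the arrays were hybridised with biotin-labelled cDNA, per the labels' protocols. The submitters' processing notes name Transcriptome Analysis Console 4.0. The steps for background, probe set summary and normalization, and the genome build, are all not given in the sources used here. Log2 values, deposited by the authors for 27596 probe sets on 8 arrays, were used unaltered. That they are log2 values was judged by their span, 0.88 to 13.26, and array medians lay between 4.05 and 4.16. Arrays have no read depth, and 4 arrays per group limit the precision.

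Of the probe sets 15310 had a single gene symbol, 323 several, and 11963 have no name here. Current symbols were taken by gene ID with the RefSeq table of GRCr8 (15279 matched). The probe set with the highest mean stood for a gene.

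Groups were compared with limma 3.58.1 in R 4.3.3 (default prior, two-sided), adjusted by Benjamini-Hochberg over 14506 genes, with no filter on low values. The fit was tested on simulated data, where it called 28.3% of genes given a change of 0.5 log2 units. Of those given a change of 1 it called 87.4%. A change of about 0.5 is thus more often missed than called. The members and lists were chosen with earlier results of these data known. All 10 members are named. Of each related list the called genes, up to 2 with the smallest p where fewer were called, and the extremes are named, with the 3 genes nearest in pattern to the member with the smallest p and to that with the widest range. Others are said to be chosen after values were seen or for their role. Other settings tried were leaving out the dimmest 25% of genes, array medians subtracted, values quantile normalized, array weights, a prior with trend and robust fit, a replicate block, the mean over probe sets, leaving out each array and, added after seeing the data, the clock score (mean of Bmal1 and Npas2 minus mean of Dbp and Per3) as a covariate.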

Additional observations from a re-analysis of the deposited data

Results flagged for a closer look

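In groups of 4 samples, a sample was marked when its gap to the nearest other exceeded the Dixon 95% critical share of the range of its group, which chance gives in about 1 in 20 groups. Of the 64 groups examined, 2 were marked. Slc7a11 read 5.91 in normoosmotic replicate 1, where the other 3 samples lay between 4.49 and 4.54. Chac2 read 2.94 in hypoosmotic replicate 3, where the other 3 lay between 3.10 and 3.13, a gap that is small in itself.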

How the results depend on the processing

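Of the 10 Nrf2 antioxidant genes, 0 passed in any of the 16 alternatives, and 8 kept the direction of their change in all of them. The exceptions were Gclc, whose change ran from −0.03 to 0.18 when arrays were left out in turn, and Slc7a11, which ran from −0.31 to 0.31 and was 0.08 with the clock score as a covariate. Selenop was at 0.01 after quantile normalization. Leaving out each array gave 0 called members, 1 to 2 called regulators, 2 to 3 called other targets, 0 glutathione genes, 0 to 1 general antioxidant genes and 0 to 1 heme and iron genes. Over all genes it gave 81 (without hypoosmotic replicate 2) to 365 (without hypoosmotic replicate 4). Further counts over all genes were 117, 232, 108 and 254 without normoosmotic replicates 1, 2, 3 and 4, and 155 and 156 without hypoosmotic replicates 1 and 3. With the clock score the counts were 1 regulator, 0 general antioxidant genes, 0 heme and iron genes and 92 of all genes, of which 89 were among the 287. The cause was not tested. The other planned settings, with all 8 arrays kept, gave between 256 and 395 genes. Samples of the same replicate number had correlated deviations of 0.03 to 0.17 over genes. Of the samples, 2 of 4 normoosmotic and 1 of 4 hypoosmotic ones correlated best with their own number. Not counted were normoosmotic replicate 1 (0.05) and hypoosmotic replicate 2 (0.03), which tied between their own number and replicate 4 of the other group. These values do not settle whether the numbers are pairs, and the main fit did not take them as pairs. With the replicate block 256 genes and 0 general antioxidant genes were called. The block lowered the standard error of Nqo1 from 0.29 to 0.18 (limma, adjusted p = 0.137) and of Slc7a11 from 0.32 to 0.13 (0.918). That of Txnrd1 went from 0.12 to 0.13. Dim probe sets near background limit what Srxn1, Slc7a11 and Chac2 can show.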
